A study of Mus musculus with 7 samples.

Results

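Mitochondrial ribosomal protein genes are nuclear genes named for products that build the ribosome of the mitochondrial matrix. A name does not by itself place a product there. The genes were chosen by name alone, as protein-coding genes whose symbol begins with Mrpl or Mrps followed by a digit. This gave 78 of 53458 annotated genes. Of these, 49 carried the Mrpl prefix of the large subunit and 29 the Mrps prefix of the small subunit, and all 78 passed the filter on low counts that left 20314 genes for testing. RNA had been sequenced from LT-HSCs, the long-term blood stem cells of the marrow, from 3 Srp72+/- mice and 4 WT (Srp72+/+) mice. All were aged C57/BL6 mice, with 1 library per mouse, and the labels give neither an age in months nor how the Srp72 allele was made. The sort took marrow cells lacking the lineage antigens Ter119, B220, CD3, Mac1 and Gr1 as well as Flt3 and CD48, and positive for Sca1, cKit and CD150. The comparison asks what the loss of 1 Srp72 allele, a subunit of the signal recognition particle, does to these cells.

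The mitochondrial ribosome translates only the few messenger RNAs of the mitochondrial genome, all for subunits of the respiratory chain and ATP synthase. Its ribosomal RNAs come from that genome, while every protein subunit is encoded in the nucleus, made in the cytosol and imported. Many subunits descend from bacterial ribosomal proteins and others exist only in mitochondria. LT-HSCs are known for low respiration at rest and for a need for mitochondrial function when they start to divide.

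The libraries held between 18054322 and 35247472 estimated reads, the most in Srp72+/- 3. Mitochondrial ribosomal RNA took 26.3% to 31.4% of the reads and the mitochondrial messenger RNAs 1.69% to 2.08%. Srp72 itself was at 71.9, 45.7 and 110 CPM (reads scaled to library size by TMM) in the Srp72+/- libraries, against 99.6, 137, 103 and 88.4 CPM in the WT libraries, and the groups overlapped (log2 fold change -0.50 ± 0.32 SE, edgeR quasi-likelihood test, unadjusted p = 0.159). In Srp72+/- 3 it was above 3 of the 4 WT libraries, so its level there goes against the label, and the libraries are named here by their labels. WT 2 and Srp72+/- 1 stood apart in their markers. All 10 LT-HSC markers were at their lowest level of the 7 libraries in WT 2. Their summed level was 1096 CPM in Srp72+/- 1 and 1673 to 1790 CPM in the other Srp72+/- libraries, against 149 CPM in WT 2 and 1726 to 2252 CPM in the other WT libraries. The 8 neutrophil markers summed to 12000 CPM in Srp72+/- 1 and 1149 to 5081 CPM in the other Srp72+/- libraries, against 38801 CPM in WT 2 and 119 to 8520 CPM in the other WT libraries. The 8 erythroid markers summed to 6018 CPM in Srp72+/- 1 and 453 to 1464 CPM in the other Srp72+/- libraries, against 8050 CPM in WT 2 and 386 to 588 CPM in the other WT libraries. The 8 B cell markers summed to 4218 CPM in Srp72+/- 1 and 241 to 1295 CPM in the other Srp72+/- libraries, against 10256 CPM in WT 2 and 51.9 to 793 CPM in the other WT libraries. The 10 cycling markers summed to 1278 to 2615 CPM in the Srp72+/- libraries, against 4110 CPM in WT 2 and 819 to 1257 CPM in the other WT libraries. With WT 2 left out, each marker list leaned one way: all 10 LT-HSC markers had lower fitted levels in Srp72+/- (median log2 fold change -0.63), and all 10 cycling (0.78), 8 neutrophil (0.80), 8 erythroid (3.39) and 5 tested B cell markers (1.93) higher ones, though 0 genes passed the test in that fit. Every result given without WT 2 carries this difference. The part of these cells in the results was not tested. In such bulk libraries fewer cells of a type and less RNA per cell cannot be told apart.

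The members were expressed at low to moderate levels. Levels were compared between genes per length, in TPM (abundance scaled for transcript length and library size), summed over the transcripts of a gene whose effective length was at least 100 bases. On this scale the median member had 6.80 TPM, next to 6.04 TPM over the 10689 protein-coding genes of at least 1 TPM. The range ran from 1.58 TPM for Mrpl11 to 58.7 TPM for Mrpl33, means of the 7 libraries. There were 27 members at 10 TPM or more and 10 under 3 TPM. The median was 6.88 TPM over the Mrpl genes and 6.72 TPM over the Mrps genes. The 46 members listed with a bacterial counterpart had a median of 8.36 TPM, and the 32 outside that list one of 5.42 TPM. The list was set by gene name and was not checked against sequences.

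Mrpl33, a short protein of the large subunit, led the levels. It had 79.9, 40.4 and 50.3 TPM in the Srp72+/- libraries and 50.2, 64.5, 63.5 and 62.4 TPM in the WT libraries. Both the highest and the lowest library were Srp72+/-. The order counts coding and other transcripts alike. Coding transcripts held 45.7% of the Mrpl33 reads and 97.2% of the Mrpl17 reads. Next came Mrpl17 with a mean of 45.8 TPM over the 7 libraries and Mrpl30 with 37.9 TPM, both large-subunit proteins with bacterial counterparts. Mrpl52, a large-subunit protein without one, followed with 31.1 TPM, and Mrps33 led the small subunit with 23.6 TPM. The ranges of neighbours in this order overlapped: Mrpl33 spanned 40.4 to 79.9 TPM, Mrpl17 35.8 to 65.8 TPM and Mrpl30 30.4 to 49.8 TPM. At the low end, Mrpl11 of the stalk base was followed by Mrps34 with 2.16 TPM, Mrpl45 with 2.25 TPM and Mrps6 with 2.32 TPM. Mrpl11 spanned 0.69 to 2.37 TPM.

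The bound on effective length decides which member leads. With all deposited transcripts summed, Mrpl52 came first at 226 TPM, Mrpl18 second at 149 TPM, Mrpl2 next at 71.1 TPM, Mrps21 at 68.4 TPM and Mrps18c at 66.2 TPM. Transcripts below 100 bases of effective length held 86.2% of the TPM of Mrpl52, 92.5% of Mrpl18, 93.0% of Mrpl2, 75.6% of Mrps21 and 82.5% of Mrps18c. Transcript Mrpl52-207 shows how: it is annotated as a retained intron of 134 bases, its effective length was 5 bases, and it held 66.4% of the TPM of the gene but 8.30% of its reads. Across the members such transcripts held 39.0% to 43.6% of the summed TPM of a library but 1.70% to 2.59% of the reads. They touched 13 members, and in 6 they made up more than 50% of the TPM.

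**Figure D1:**
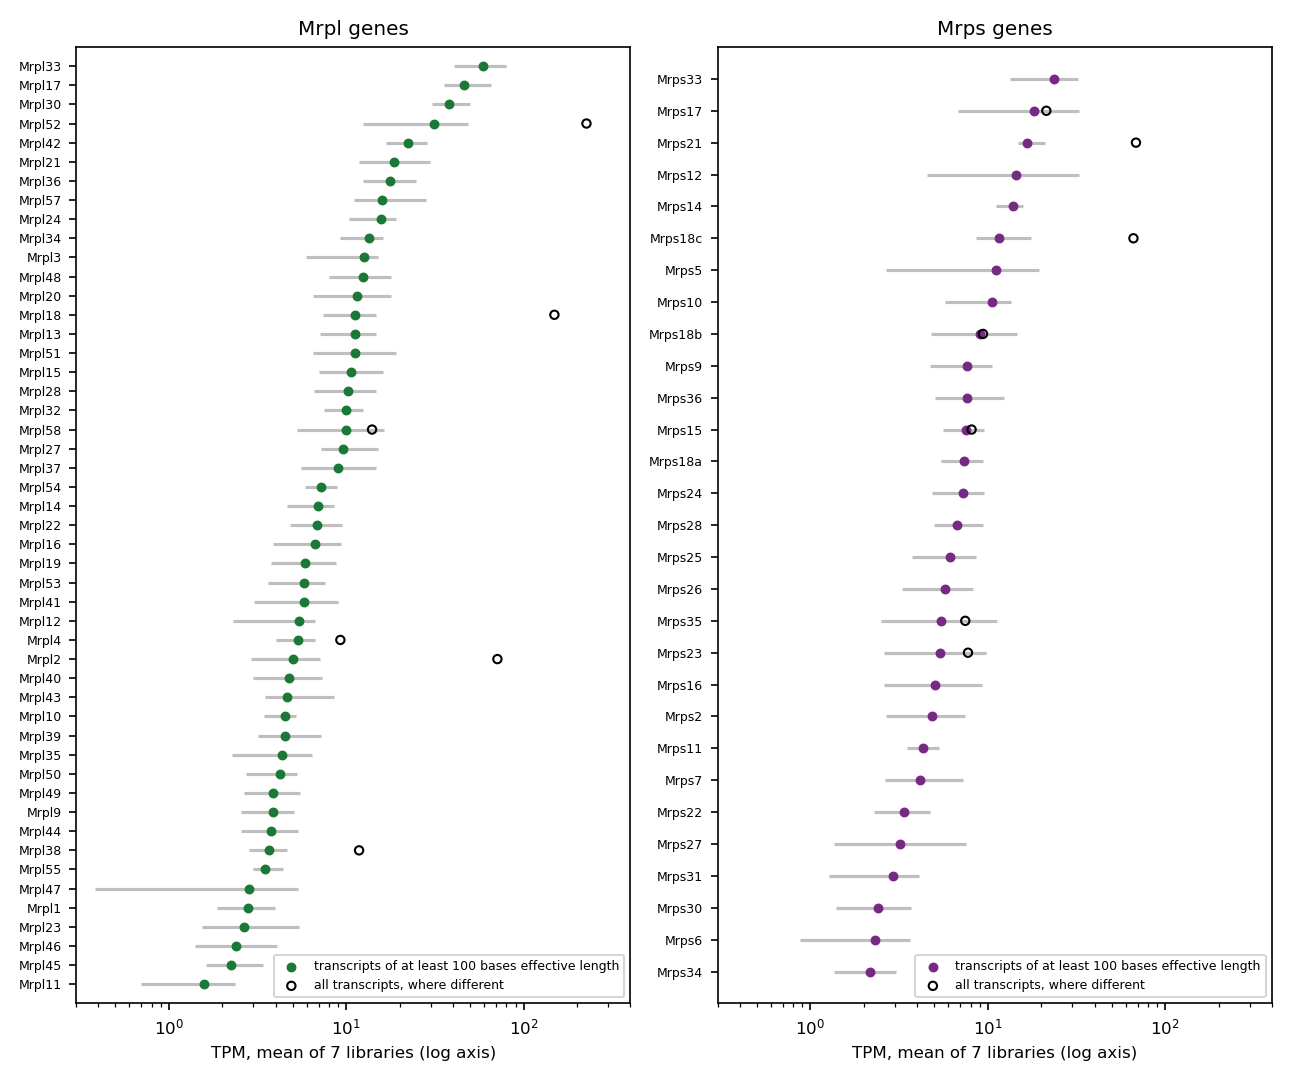
Levels of the 78 genes in TPM on a log axis, Mrpl genes on the left and Mrps genes on the right. Filled points are means of the 7 libraries over transcripts of at least 100 bases of effective length, grey lines run from the lowest to the highest library, and open circles give the mean over all transcripts where it differs: Mrpl33 leads the filled points at 58.7 TPM, while Mrpl52 leads with all transcripts at 226 TPM.

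Not all reads of these genes fell on coding transcripts. The 78 genes have 331 annotated transcripts in the tables, of which 164 are coding. Coding transcripts held 68.7% to 74.2% of the member reads in a library, retained introns 13.5% to 19.1%, transcripts with no annotated product 6.40% to 8.29% and targets of nonsense-mediated decay 4.59% to 7.14%. In 28 members more than 90% of the reads were on coding transcripts and in 19 fewer than 50%. The lowest share was in Mrps11 (8.91%), followed by Mrps24 (12.01%), whose product corresponds to a bacterial protein at the messenger RNA entry of the small subunit. The protocol was for total RNA, amplified as whole transcripts, and the split of reads between transcripts is an estimate of the authors' tool.

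The genotypes did not differ in any member past the threshold. With the edgeR quasi-likelihood test and Benjamini-Hochberg adjustment over all genes, 0 of 78 members passed an adjusted p of 0.05, as did 0 of the 20314 genes (0%), and the smallest adjusted p of all was 0.9998. At an unadjusted p below 0.05 there was 1 member, Mrps18b, among 365 genes (1.8%). DESeq2 called 9 genes and 0 members. Without Srp72+/- 3, and without WT 2 and Srp72+/- 1 together, 0 genes passed as well. With WT 2 left out, 0 of 19856 genes and 0 members passed, and 962 genes (4.84%) and 1 member had an unadjusted p below 0.05.

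The members were spread evenly on both sides of 0. In Srp72+/- against WT, 41 were higher and 37 lower. The median log2 fold change was 0.01, and over all tested genes the median was -0.01 with 49.3% higher. The 78 values ran from -0.94 to 0.59, with a median standard error of 0.36. For 73 members, 93.6%, the fold change was within 1.5-fold. The same held for 75.8% of all tested genes and 89.5% of the 10387 protein-coding genes with a mean of at least 5 CPM. Without WT 2 the median over the members was 0.09, with 42 higher and 36 lower, and that over all genes 0.04. Without WT 2 and Srp72+/- 1 together the median was 0.18 with 50 higher. Without Srp72+/- 3 the median was -0.27 and 14 of the 78 were higher.

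The Mrpl and Mrps genes did not part by genotype. Of the Mrpl genes 27 were higher and 22 lower (median log2 fold change 0.01), and of the Mrps genes 14 were higher and 15 lower, with a median of -0.03. Without WT 2 these medians were 0.12 and -0.02. Members listed with a bacterial counterpart were 24 higher and 22 lower with a median of 0.01. Those outside that list were 17 higher and 15 lower with a median of 0.01, or 0.22 without WT 2. Of the 3 stalk proteins, which receive the translation factors, Mrpl12 had a log2 fold change of 0.23, Mrpl10 of -0.17 and Mrpl11 of -0.39. Of the 4 proteins around the peptide exit, 1 was higher and 3 lower, with a median of -0.42. Mrpl24 there had a log2 fold change of -0.24 and Mrpl45, which ties the ribosome to the inner membrane, one of -0.60.

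**Figure D2:**
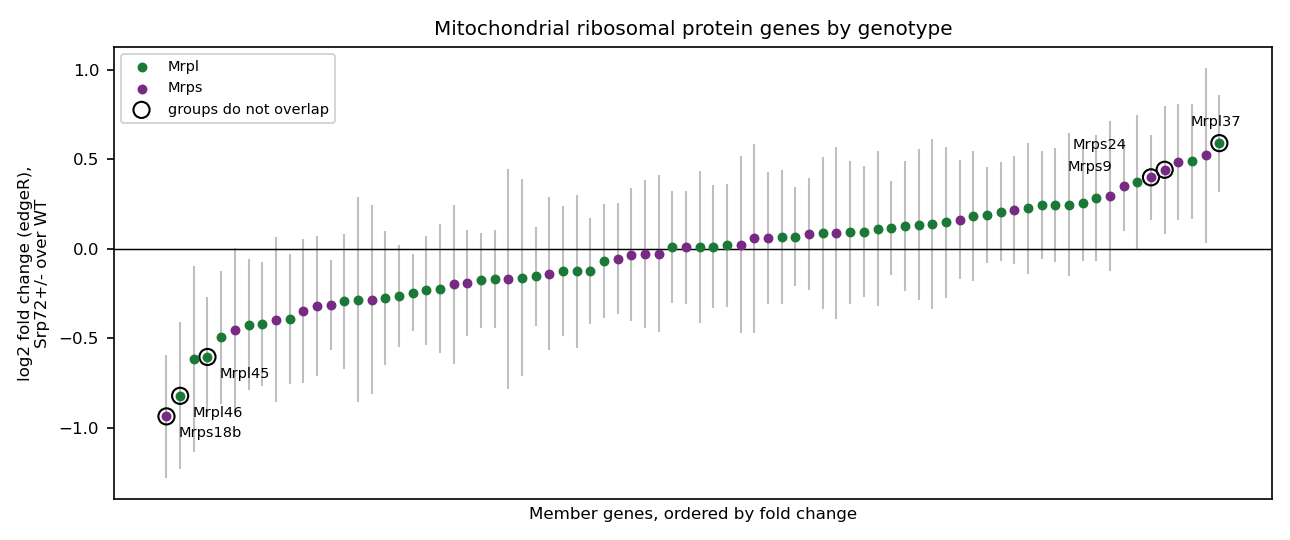
Log2 fold change of Srp72+/- over WT from the edgeR fit for each of the 78 genes, ordered from lowest to highest, with 1 standard error as grey bars. Green points are Mrpl genes and purple points Mrps genes, and rings mark the 6 genes whose CPM values do not overlap between groups: the values run from -0.94 for Mrps18b to 0.59 for Mrpl37, and most bars cross 0.

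Among the members, 6 had groups that did not overlap in CPM, or 7.69%, against 725 of all tested genes (3.57%). In 3 all Srp72+/- libraries were above all WT libraries, next to 2.08% of all genes, and in 3 they were below, next to 1.49% of all genes. Without WT 2 there were 10 such members, next to 10.1% of the genes tested. On the per-length scale 4 members did not overlap, all with Srp72+/- higher (Mrps24, Mrps25, Mrps31 and Mrpl36), and Mrps24 alone was in both sets. The share over all genes was not computed on that scale, so this count is a description only. The direction also depended on the scale: in CPM Mrps25 had a log2 fold change of -0.19, while Mrps24, Mrps31 and Mrpl36 were above 0.

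Mrpl37, a large-subunit protein found only in mitochondria, had 34.4, 23.3 and 24.2 CPM in the Srp72+/- libraries and 17.9, 19.95, 20.1 and 14.4 CPM in the WT libraries. The means were 27.3 ± 6.16 CPM in Srp72+/- (SD, n = 3) and 18.1 ± 2.64 CPM in WT (SD, n = 4), and the log2 fold change was 0.59 ± 0.27 SE (edgeR quasi-likelihood, unadjusted p = 0.0591). The highest value, in Srp72+/- 1, stood well above the other libraries of that group. Mrps9, a small-subunit protein near the transfer RNA sites, had 30.9, 23.1 and 25.6 CPM in Srp72+/- and 20.6, 18.5, 21.2 and 20.1 CPM in WT. Its WT values lay close together and its log2 fold change was 0.40 ± 0.24 SE (edgeR, unadjusted p = 0.129). Coding transcripts held only 24.6% of the Mrps9 reads. Mrps24 had 8.05, 7.59 and 10.9 CPM in Srp72+/- and 7.23, 7.16, 4.75 and 6.92 CPM in WT. The gap between the groups was small, with a log2 fold change of 0.44 ± 0.36 SE (edgeR, unadjusted p = 0.251). Mrps24 overlaps Urgcp on the same strand, and the share of its reads between the 2 genes is uncertain.

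Mrpl46, a large-subunit protein found only in mitochondria, had 4.34, 3.48 and 3.88 CPM in Srp72+/- and 5.94, 6.84, 4.99 and 9.80 CPM in WT. The Srp72+/- values were tightly grouped below the spread of WT, and the log2 fold change was -0.82 ± 0.41 SE (edgeR, unadjusted p = 0.0798). Mrpl45 had 8.74, 7.41 and 8.70 CPM in Srp72+/- and 11.6, 16.2, 8.92 and 13.7 CPM in WT. WT 3 lay just above the Srp72+/- libraries, and the log2 fold change was -0.60 ± 0.34 SE (edgeR, unadjusted p = 0.108). Mrpl46 overlaps Mrps11 on the opposite strand, with 412 bases between their starts. The labels do not say whether strand was used in counting, so reads in the overlap cannot be told apart.

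**Figure D3:**
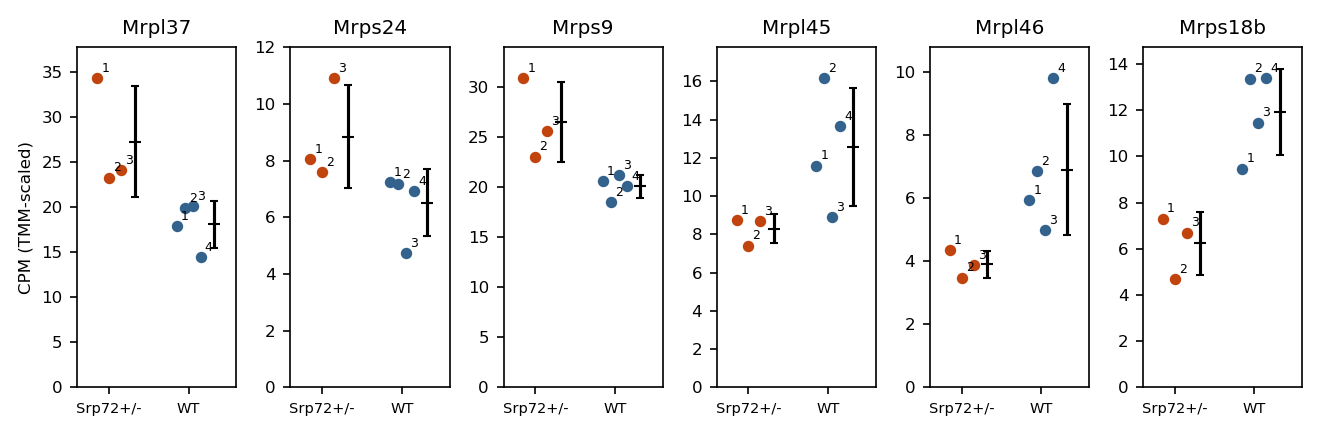
TMM-scaled CPM in each library for the 6 genes whose groups do not overlap, Srp72+/- in orange left of WT in blue, with replicate numbers beside the points and mean ± SD as black bars (n = 3 and n = 4). Mrpl37, Mrps24 and Mrps9 are higher in Srp72+/-, and Mrpl45, Mrpl46 and Mrps18b lower, and in Mrpl45 and Mrps24 the nearest points of the groups almost touch.

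Mrps18a, Mrps18b and Mrps18c are paralogs that correspond to a single bacterial protein of the small subunit. In the mammalian ribosome the Mrps18c protein takes the bacterial position, that of Mrps18b sits elsewhere in the small subunit, and that of Mrps18a is in the large subunit despite its name. Their windows around the transcription start, 250 bases before to 50 after, are printed from RefSeq on GRCm38.p6, 5′ to 3′ on the strand of the gene, since these 3 paralogs differ in the letters of their promoters. The window of Mrpl37, the member with the highest fold change, and that of Mrpl33, the member with the highest level, are added for comparison. Capitals mark every match on either strand to 3 motifs: GCATGCGC, the core of the NRF1 site, CCGGAAG, a site of ETS factors such as GABP, and AAGATGGCG, a YY1 site near the start.
Mrps18a (chr17:46110754-46111053, plus strand): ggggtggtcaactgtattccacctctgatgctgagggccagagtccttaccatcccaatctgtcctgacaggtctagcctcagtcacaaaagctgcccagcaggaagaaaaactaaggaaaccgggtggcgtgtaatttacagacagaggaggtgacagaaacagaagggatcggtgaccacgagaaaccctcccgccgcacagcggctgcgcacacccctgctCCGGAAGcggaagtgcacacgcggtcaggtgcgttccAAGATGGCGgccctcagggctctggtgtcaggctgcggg
Mrps18b (chr17:35916391-35916690, minus strand): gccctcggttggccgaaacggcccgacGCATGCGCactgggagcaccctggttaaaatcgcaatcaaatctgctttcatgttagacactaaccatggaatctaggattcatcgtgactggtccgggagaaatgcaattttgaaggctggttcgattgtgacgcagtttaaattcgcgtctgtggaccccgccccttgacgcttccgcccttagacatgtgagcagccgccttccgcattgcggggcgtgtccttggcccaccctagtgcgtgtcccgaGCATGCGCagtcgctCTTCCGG
Mrps18c (chr5:100798509-100798808, plus strand): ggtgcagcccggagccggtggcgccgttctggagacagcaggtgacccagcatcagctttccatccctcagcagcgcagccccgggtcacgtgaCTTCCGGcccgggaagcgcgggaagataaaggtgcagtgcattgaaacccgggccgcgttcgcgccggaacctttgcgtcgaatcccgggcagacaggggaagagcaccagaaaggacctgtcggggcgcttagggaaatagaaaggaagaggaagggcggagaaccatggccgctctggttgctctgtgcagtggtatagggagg
Mrpl37 (chr4:107066817-107067116, minus strand): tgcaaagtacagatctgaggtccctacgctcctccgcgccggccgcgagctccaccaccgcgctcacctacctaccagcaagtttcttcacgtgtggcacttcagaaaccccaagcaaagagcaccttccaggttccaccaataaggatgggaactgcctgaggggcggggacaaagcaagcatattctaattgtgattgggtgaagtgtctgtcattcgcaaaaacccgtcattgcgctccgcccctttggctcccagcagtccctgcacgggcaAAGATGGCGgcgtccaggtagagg
Mrpl33 (chr5:31613701-31614000, plus strand): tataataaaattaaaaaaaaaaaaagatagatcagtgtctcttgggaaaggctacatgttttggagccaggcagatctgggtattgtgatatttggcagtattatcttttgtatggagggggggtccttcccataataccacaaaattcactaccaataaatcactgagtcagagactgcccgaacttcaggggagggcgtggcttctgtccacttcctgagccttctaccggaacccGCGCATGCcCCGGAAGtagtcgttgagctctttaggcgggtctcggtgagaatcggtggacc

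The Mrps18a window held 1 ETS and 1 YY1 match, that of Mrps18b 2 NRF1 core matches and 1 ETS match, and that of Mrps18c 1 ETS match. In Mrpl37 the single match was to YY1, just past the start, and in Mrpl33 an NRF1 core match and an ETS match lay next to each other at the start. RefSeq places the start of Mrpl33 17016 bases from the GENCODE start of the gene, so the window is that of the RefSeq transcript.

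The 3 paralogs did not move together. Mrps18b, on chromosome 17 at 35910379 to 35916389 (GRCm38), had 7.31, 4.69 and 6.70 CPM in Srp72+/- and 9.47, 13.4, 11.5 and 13.4 CPM in WT. All Srp72+/- libraries were below all WT libraries, with means of 6.23 ± 1.37 CPM (SD, n = 3) and 11.9 ± 1.87 CPM (SD, n = 4). The log2 fold change was -0.94 ± 0.34 SE (edgeR quasi-likelihood, unadjusted p = 0.0256, adjusted p = 0.9998), and without WT 2 it was -0.87 (unadjusted p = 0.045). Per length the groups overlapped, with 8.39, 4.78 and 5.17 TPM in Srp72+/- and 14.6, 7.47, 13.7 and 9.34 TPM in WT. Mrps18a had 11.1, 8.12 and 12.1 CPM in Srp72+/- and 9.75, 11.1, 6.19 and 12.99 CPM in WT, and a log2 fold change of 0.06 ± 0.37 SE. Mrps18c had 12.7, 7.01 and 9.61 CPM in Srp72+/- and 12.8, 16.9, 11.6 and 7.37 CPM in WT, and a log2 fold change of -0.32 ± 0.39 SE. In Mrps18a and Mrps18c the groups overlapped. Differences between the paralogs were not tested.

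The other members with the smallest p in each direction overlapped between groups. Mrpl35 averaged 16.4 ± 4.43 CPM in Srp72+/- and 11.7 ± 2.29 CPM in WT, and Mrps31 averaged 13.4 ± 3.11 CPM in Srp72+/- and 9.59 ± 1.80 CPM in WT (SD, n = 3 and n = 4). Mrps30, whose protein lies in the large subunit despite its name, averaged 23.4 ± 4.09 CPM in Srp72+/- and 18.3 ± 1.11 CPM in WT. On the other side, Mrpl43 averaged 8.91 ± 2.25 CPM in Srp72+/- and 12.6 ± 3.595 CPM in WT. Mrps14, a small-subunit protein with a bacterial counterpart, averaged 20.7 ± 3.17 CPM in Srp72+/- and 25.7 ± 3.13 CPM in WT. Mrpl51 averaged 19.8 ± 2.20 CPM in Srp72+/- and 26.4 ± 11.04 CPM in WT. WT 2 decided the value of Mrpl51: it stood at 42.5 CPM there, and the log2 fold change was -0.42 with WT 2 and -0.09 without it.

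Levels varied modestly between libraries. The median SD of log2 CPM over the 7 libraries was 0.39 for the members, against 0.63 for all tested genes and 0.47 for protein-coding genes of at least 5 CPM. The steadiest were Mrpl24 (SD 0.18), which spanned 29.3 to 41.3 CPM, Mrpl1 (0.19), Mrpl10 (0.21) and Mrpl9 (0.21), all with bacterial counterparts. The most variable was Mrps12, the protein of the decoding centre, with an SD of 0.80. Mrps12 had 3.601, 6.69 and 9.76 CPM in Srp72+/- and 3.03, 4.73, 14.8 and 7.46 CPM in WT, with both ends of the range in WT. Then came Mrpl47 (0.72), Mrpl41 (0.71) and Mrps7 (0.68). Mrps7, a protein that starts assembly of the small subunit in bacteria, had 35.2 CPM in Srp72+/- 3, against 10.2 and 13.5 CPM in the other Srp72+/- libraries and 8.95 to 19.2 CPM in WT. Mrpl58, the peptidyl-tRNA hydrolase that frees stalled ribosomes, averaged 10.2 ± 3.73 CPM in Srp72+/- (SD, n = 3) and 9.56 ± 3.58 CPM in WT (SD, n = 4).

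The spread among Srp72+/- libraries was larger than the difference between the genotypes. The members summed to 1123, 1068 and 1545 CPM in the Srp72+/- libraries and to 1192, 1405, 1217 and 1181 CPM in the WT libraries. The means were 1245 ± 261 CPM in Srp72+/- and 1249 ± 106 CPM in WT (SD, n = 3 and n = 4). Srp72+/- 3, the most deeply sequenced library, had the highest CPM of 37 of the 78 members, and WT 2 that of 19. Srp72+/- 2 had the lowest CPM of 22 members and Srp72+/- 1 that of 18. As a share of all reads the members took 0.115%, 0.121% and 0.145% in Srp72+/- and 0.118%, 0.119%, 0.128% and 0.1204% in WT.

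Per length the order of the libraries was another. Over transcripts of at least 100 bases of effective length the members summed to 714, 799 and 856 TPM in Srp72+/- and to 720, 613, 870 and 738 TPM in WT. The means were 789 ± 71.2 TPM in Srp72+/- and 735 ± 105 TPM in WT. WT 2 was the lowest library in TPM and the second highest in CPM. The summed level of the Mrpl genes over that of the Mrps genes was 2.64, 2.10 and 2.31 in Srp72+/- and 2.19, 2.59, 2.23 and 2.13 in WT, in TPM over the same transcripts. Genes were also placed by the subunit their protein sits in, with Mrps36 placed in neither subunit and left out. The ratio of the large to the small subunit was then 2.94, 2.33 and 2.56 in Srp72+/- and 2.39, 2.895, 2.38 and 2.37 in WT. Srp72+/- 1 and WT 2, the libraries with the most neutrophil, erythroid, B cell and cycling marker reads, had the highest ratios both ways. Over all deposited transcripts the order turned. There the ratio of the Mrpl to the Mrps genes was lowest in these libraries, at 2.54 in Srp72+/- 1 and 2.60 in WT 2, against 2.62 to 2.96 elsewhere. The part of those cells was not tested.

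**Figure D4:**
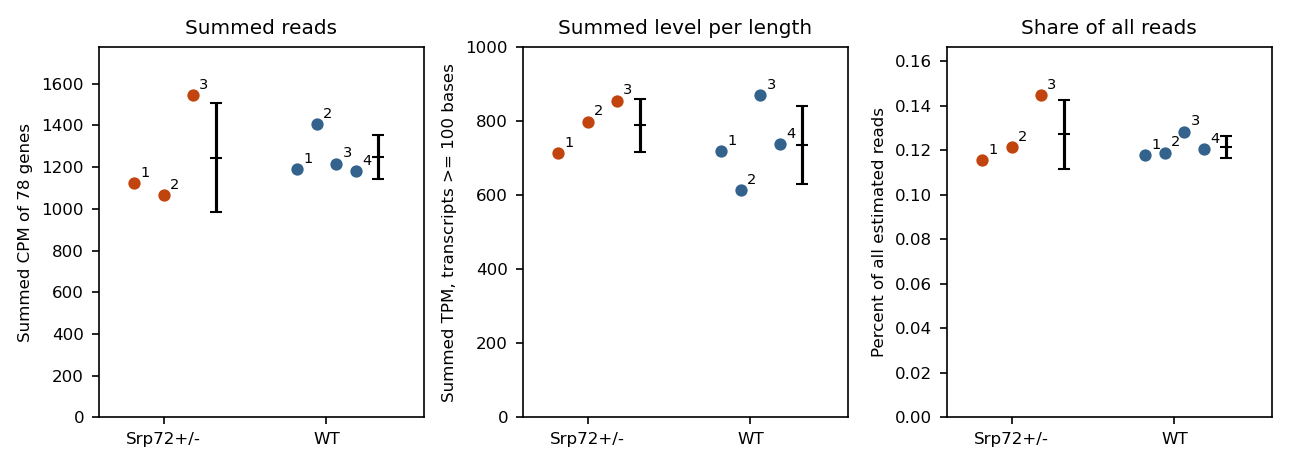
Summed levels of the 78 genes in each library, Srp72+/- in orange left of WT in blue, as TMM-scaled CPM, as TPM over transcripts of at least 100 bases of effective length, and as a percentage of all estimated reads. Numbers are replicates and black bars mean ± SD (n = 3 and n = 4): Srp72+/- 3 is highest in CPM and in share of reads, while WT 2 is second in CPM and lowest in TPM.

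Taken pair by pair, the members followed each other only weakly between libraries. Over the 3003 pairs of members the median Pearson correlation of log2 CPM was 0.25, with 69.8% of pairs positive, and 0.26 without WT 2. The median was 0.002 over all pairs of the 14112 nuclear protein-coding genes tested, 0.54 over 81 nuclear respiratory chain subunits, 0.83 over 80 cytosolic ribosomal proteins and 0.49 over the 13 mitochondrial messenger RNAs. Among the Mrpl genes it was 0.28 and among the Mrps genes 0.18. The points share library, depth and cell makeup, so these values are descriptions. The lists also differ in level. Mean log2 CPM per library was 3.50 to 4.06 for the members and 4.10 to 4.95 for the respiratory chain subunits. It was 7.17 to 8.20 for the cytosolic ribosomal proteins and 8.77 to 9.37 for the mitochondrial messenger RNAs. The part of level in the correlations was not tested.

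The members showed no stable relation with the mitochondrial messenger RNAs. The mean log2 CPM of the members was 3.50, 3.51 and 4.06 in Srp72+/- and 3.69, 3.88, 3.70 and 3.68 in WT. That of the 13 mitochondrial messenger RNAs was 8.99, 8.77 and 8.83 in Srp72+/- and 9.14, 9.37, 9.24 and 8.78 in WT. Srp72+/- 3 was highest for the members and the third lowest for the mitochondrial messenger RNAs. The correlation over the 7 libraries was 0.19 (Pearson) and 0.46 (Spearman). It was -0.08 without WT 2, -0.13 without WT 2 and WT 3, the 2 libraries farthest from the median, and 0.73 without Srp72+/- 3, so its sign rests on single libraries. Member by member the correlation ran from -0.75 to 0.90 with a median of 0.09 and 46 positive values (59.0%), next to a median of -0.02 and 48.6% positive over nuclear protein-coding genes. Without WT 2 the median over the members was -0.05.

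Among the gene lists correlated here, the nuclear respiratory chain subunits had the highest Pearson correlation with the members over the 7 libraries. This order depended on the libraries used. It leaves out the 5 mitochondrial ribosomal proteins under other symbols, such as Dap3, whose correlation with the members was not computed. Like that of the members, the mean log2 CPM of these 5 genes was highest in Srp72+/- 3 (4.43) and WT 2 (4.40). The mean log2 CPM of the respiratory chain subunits correlated with that of the members at 0.92 over 7 libraries and 0.94 without WT 2. Without Srp72+/- 3 and WT 2 together the correlation was 0.72. With the cytosolic ribosomal proteins the correlation was 0.56, 0.88 without WT 2, and 0.95 without Srp72+/- 1 and WT 2 together. With the mean of the 2 mitochondrial ribosomal RNAs, mt-Rnr1 and mt-Rnr2, it was 0.82, and 0.78 without WT 2. This value holds for TMM-scaled CPM, a scaling that both series share. As a share of reads these RNAs took 27.1%, 29.4% and 27.4% in Srp72+/- and 31.4%, 26.3%, 30.3% and 29.9% in WT. WT 2, second highest for the members, had the lowest share, and the correlation with the share was not computed. Other lists of nuclear genes of the organelle for which a correlation was computed had lower values over the 7 libraries. The correlation was 0.33 with the genes of ribosome assembly and ribosomal RNA modification. For these it was 0.85 without WT 2 and 0.84 without Srp72+/- 1 and WT 2 together. With the mitochondrial aminoacyl-tRNA synthetases the correlation was 0.03, or 0.40 without WT 2. It was -0.25 with the translation factors and activators, or -0.03 without WT 2, and -0.35 with the genes of mitochondrial genome transcription and maintenance, or -0.09 without WT 2. With the cycling markers it was 0.53, and -0.64 without Srp72+/- 3 and WT 2. The Mrpl genes correlated with the Mrps genes at 0.88, and at 0.90 without WT 2.

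**Figure D5:**
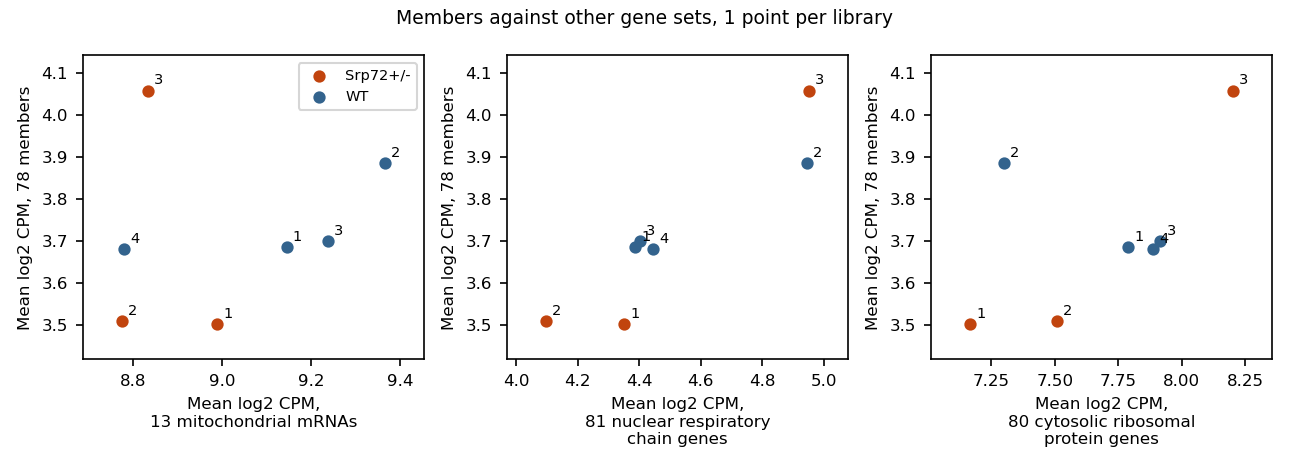
Mean log2 CPM of the 78 genes (vertical axis) against that of the 13 mitochondrial messenger RNAs, 81 nuclear respiratory chain genes and 80 cytosolic ribosomal protein genes, 1 point per library, Srp72+/- in orange and WT in blue, with replicate numbers. The correlations are 0.19, 0.92 and 0.56, and Srp72+/- 3 and WT 2 stand at the top of each panel.

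By a fixed rule, the 6 nuclear protein-coding genes of at least 5 CPM whose log2 CPM followed the mean standardised level of the members most closely over the 7 libraries were named, out of 10300. They were C1qbp, a multifunctional protein of the mitochondrial matrix (correlation 0.996), Dpy30, a subunit of histone methyltransferase complexes (0.991), Pcbp1, an RNA-binding protein (0.985), Eif4g1, a scaffold of cytosolic translation initiation (0.982), Fxyd5, a regulator of the sodium pump (0.981), and Snx5, a sorting nexin (0.980). C1qbp had 37.8, 34.9 and 78.6 CPM in Srp72+/- and 48.3, 65.8, 45.8 and 45.6 CPM in WT. Its highest libraries were Srp72+/- 3 and WT 2, the same as for the summed members. The genes were picked for this likeness among many, so the values are descriptions.

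Other genes of mitochondrial translation gave 0 calls as well, with edgeR and with DESeq2, and Mrm1 was the only one with an unadjusted p below 0.05 in the edgeR test. Of 28 genes of ribosome assembly and ribosomal RNA modification, 16 were higher and 12 lower in Srp72+/- (median log2 fold change 0.02). Without WT 2, 9 were higher and 19 lower with a median of -0.11. Mrm1, the methyltransferase of the large ribosomal RNA, had 20.5, 17.6 and 20.7 CPM in Srp72+/- and 10.4, 8.25, 8.63 and 12.5 CPM in WT. Its groups did not overlap, and its log2 fold change of 0.98 ± 0.29 SE was the one with the smallest p in that list (edgeR quasi-likelihood, unadjusted p = 0.00926, adjusted p = 0.9998). Mettl17, a factor bound to the assembling small subunit, had 9.27, 9.01 and 10.1 CPM in Srp72+/- and 6.89, 5.12, 7.15 and 4.90 CPM in WT. Its groups did not overlap either, with a log2 fold change of 0.65 ± 0.34 SE. Noa1, a GTPase of small-subunit assembly, averaged 33.0 ± 9.15 CPM in Srp72+/- and 22.7 ± 4.45 CPM in WT (SD, n = 3 and n = 4).

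Of the 5 ribosomal proteins under other symbols 2 were higher and 3 lower, with Dap3, a GTP-binding protein of the small subunit, at 26.6 ± 4.07 CPM in Srp72+/- and 26.5 ± 3.74 CPM in WT (SD, n = 3 and n = 4). The 14 translation factors and activators were 7 higher and 7 lower (median log2 fold change 0.03), and the elongation factor gene Tufm averaged 21.5 ± 11.7 CPM in Srp72+/- and 16.4 ± 3.52 CPM in WT. The 17 mitochondrial aminoacyl-tRNA synthetases were 7 higher and 10 lower with a median of -0.03. Among them Lars2 stood at 9348, 3764 and 6567 CPM in Srp72+/- and 9381, 14530, 5741 and 9181 CPM in WT. The reads assigned to Lars2 exceeded the summed level of all 78 members in every library. The mean log2 CPM of the 17 synthetases was only 3.96 to 4.56 in the libraries. Where the reads assigned to Lars2 came from was not tested, so the value is not read as a messenger RNA level. The 11 genes of mitochondrial genome transcription and maintenance were 7 higher and 4 lower with a median of 0.05, and Polrmt, the mitochondrial RNA polymerase, averaged 15.1 ± 1.73 CPM in Srp72+/- and 11.5 ± 2.47 CPM in WT. Of 9 nuclear regulators, among them Nrf1 and Gabpa, 6 were higher and 3 lower with a median of 0.04.

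Of the 13 mitochondrial messenger RNAs, 1 was higher and 12 lower in Srp72+/-, and 0 passed the test. Their median log2 fold change was -0.23, or -0.16 without WT 2. As a share of all reads they took 1.81 ± 0.13% in Srp72+/- and 1.82 ± 0.18% in WT (SD, n = 3 and n = 4). The lean was thus not seen on that scale. The nuclear respiratory chain subunits were 33 higher and 48 lower with a median of -0.09, or 0.08 without WT 2. The cytosolic ribosomal proteins were 32 higher and 48 lower with a median of -0.06, or -0.18 without WT 2.

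In the genome the members were scattered over 17 chromosomes, with the most, 11, on chromosome 11. Many faced another gene: 33 of 78 (42.3%) had the start of an opposite-strand protein-coding gene within 1000 bases of their own, against 14.99% of the 14112 nuclear protein-coding genes tested. The neighbours include Sars2, a mitochondrial synthetase, 172 bases from Mrps12, Ndufs6, a subunit of complex I, 29 bases from Mrpl36, and Ppp1r10, 45 bases from Mrps18b. In 17 pairs with a tested neighbour the genes run apart without overlap, and 7 of these pairs had a positive correlation over the 7 libraries, with a median of -0.17. Among them were Mrps27 and Ptcd2 at 0.96 and Mrps18b and Ppp1r10 at -0.18. In 14 pairs, Mrpl46 with Mrps11 counted once, the genes overlap on opposite strands, and 13 of these had a positive correlation, with a median of 0.44. Mrpl36 and Ndufs6, at 0.92, are such a pair, and with strand use unknown reads in the overlap cannot be told apart. Of the 78 members 42 overlapped another annotated gene, 36 on the opposite strand.

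RefSeq promoter windows of 300 bases were found for 69 of the 78 members. The NRF1 core was in 8 of them (11.6%), the ETS motif in 26 (37.7%) and the YY1 motif in 8 (11.6%), and 36 (52.2%) held at least 1. Of the 10986 nuclear protein-coding genes tested that had a window, 5.63% held the NRF1 core, 18.6% the ETS motif and 3.27% the YY1 motif, and 25.2% held at least 1. The windows of all 27025 genes in the table gave 3.05%, 9.93% and 1.64%. Among the Mrpl genes 7 windows held the NRF1 core, including Mrpl33 and Mrpl17, and among the Mrps genes only Mrps18b. Both strands were searched, none of the 3 motifs is contained in another, and a match is a description of the letters.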

How the data were processed

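RNA was sequenced from 3 Srp72+/- and 4 WT libraries, and groups were taken from sample titles. Sorted cells were lysed, RNA was extracted on columns, amplified with the NuGen Ovation V2 system and made into TruSeq V2 libraries, per the labels' protocols. Amplification of small inputs can widen differences between libraries. Replicates are separate mice. The deposited tables hold estimated counts (expected counts) per transcript, made with Salmon 0.12.0 per the submitters' processing notes, which also name mm10 and GRCm38.p6. They also hold TPM and effective lengths as deposited by the authors. Transcript release, bias options and strand setting were not given in the sources used here. Reads of close copies such as Mrpl23 and its processed pseudogene are split by the authors' tool. Of 136288 transcripts, 112 had no match in GENCODE M21 and were set aside.

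For each gene, estimated counts were added up and rounded. Genes were filtered with filterByExpr (minimum count 10, total 15), scaled by TMM and tested with edgeR 4.0.16 (robust quasi-likelihood, Benjamini-Hochberg, threshold 0.05) in R 4.3.3, the source of every p here. Log2 CPM used a prior count of 2, and fold changes are Srp72+/- over WT. The smallest number of reads of a member in a library was 33. The procedure was tested on simulated data. Alternatives were DESeq2 1.42.0, voom in limma 3.58.1 and other scalings, filters, gene sets and libraries. Counting of coding transcripts only, the bound of 100 bases on effective length, and the count of groups that do not overlap without WT 2 or per length were chosen after seeing the data. The members and lists were chosen with earlier results of these data known.

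Named members were the 8 with the highest and 4 with the lowest TPM, the 6 with the smallest p in each direction, those whose groups do not overlap, the 4 with the largest and the 4 with the smallest SD, the Mrps18 paralogs, Mrpl12, Mrps12 and Mrpl58. From each other list the 3 genes with the smallest p were candidates, and some are left out. Dap3, Tufm, Nrf1, Gabpa, Mrps11, Mrps25, Mrps33, Mrpl36, Mrps27 and their neighbours are given as examples outside the rule or after their values were seen.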

Additional observations from a re-analysis of the deposited data

Results flagged for a closer look

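Dixon's ratio was computed over the 4 WT libraries in 86 measures of these genes, and 7 exceeded the critical value of 0.829, 8.14% of them. Chance alone gives about 1 in 20 for separate measures. These were not separate: the flags fell on 3 of the 78 genes and otherwise on sums, means and a ratio over the same genes. The 8.14% can therefore not be read as an excess. Groups of 3, such as Srp72+/-, are not examined by this rule.

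WT 2 stood above the other WT libraries in 5 of these measures. Mrps21, a small-subunit protein with a bacterial counterpart, had 18.7 CPM in WT 2, next to 9.74 to 10.2 CPM elsewhere in WT. The summed CPM of the members was 1405 in WT 2. The mean log2 CPM was 3.88 over all members and 4.02 over the Mrpl genes in WT 2. The ratio of summed Mrpl to summed Mrps CPM was 2.41 in WT 2. The LT-HSC markers were lowest and the neutrophil and cycling markers highest in that library, and their part in these values was not tested.

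Mrpl32, a large-subunit protein with a bacterial counterpart, was low in WT 1, at 17.7 CPM against 21.7 to 22.6 CPM in the other WT libraries. Mrps24 was low in WT 3, at 4.75 CPM against 6.92 to 7.23 CPM, and without that library its log2 fold change stayed above 0.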

How the results depend on the processing

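The number of member genes past the adjusted threshold was 0 under every alternative run, an FDR of 0.1 included. Over all genes it was 0 except with DESeq2 (9 genes) and in the fits that leave out 1 library, where it ranged from 0 to 1, the 1 arising without WT 4. The median log2 fold change of the members ranged from -0.27 to 0.095 when 1 library was left out, that of the Mrpl genes from -0.27 to 0.12 and that of the Mrps genes from -0.26 to 0.17, with the lowest values without Srp72+/- 3. The remaining alternatives moved these medians by less than the spread between replicates of 0.26 to 0.28. The log2 ratio of the summed TPM of the members over all transcripts, Srp72+/- over WT, was 0.14, and ranged from 0.07 to 0.22 without 1 library. Over transcripts of at least 100 bases of effective length it was 0.10. The log2 ratio between the genotypes of the Mrpl to Mrps sums was -0.02 in TPM over all transcripts, from -0.05 to 0.03 without 1 library, -0.23 with medians over members in place of sums, and 0.04 over transcripts of at least 100 bases, so its sign depends on the transcripts counted. The correlation of the members with the mitochondrial messenger RNAs was 0.19, 0.46 by Spearman, -0.13 without the 2 libraries farthest from the median, and -0.45 when the members were scaled to nuclear reads and the messenger RNAs taken as a share of reads. It ranged from -0.076 to 0.73 without 1 library. All 12 named fold changes kept their sign in all alternatives, which for groups that do not overlap follows from how they were named. The others were picked for a small p in these same data, which also favours a steady sign, so the count is a description. Same-numbered libraries did not deviate together (correlations -0.32, -0.16 and 0.002), and no label says that the numbers mark pairs. So few libraries cannot decide whether the samples were paired. With the replicate block 0 genes and 0 members were called, and the median over the members was -0.09. Depth did not remove any member, and the median SE of a member was 0.36 on the log2 scale. The cause of these shifts was not tested.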

Other observations

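Reads are also assigned to 4 of 5 processed pseudogenes of the family. Mrpl23-ps1, a processed copy of Mrpl23, was listed at 7.34, 23.3 and 16.7 TPM in Srp72+/- and at 26.3, 11.4, 21.6 and 21.8 TPM in WT. Mrpl23 itself, a protein of the peptide exit, was at 3.46 to 4.29 CPM in Srp72+/- and 2.56 to 9.02 CPM in WT. The copies share sequence, so the split of reads between them is uncertain. Mrps36-ps2 reached 16.03 TPM in Srp72+/- 2, was listed at 0 in Srp72+/- 1, and lay between 4.35 and 10.8 TPM in WT. Mrps36-ps3 was listed at 0 in all 7 libraries.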
